A study of Homo sapiens with 24 samples.

Results

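Human genes of iron uptake, storage and iron-sulfur metabolism were examined in peak lists of TR4 and BCL11A binding: TFRC, SLC25A37, SLC25A38, FTH1, FTL, GLRX5, ACO1, IREB2 and ABCB10. They were chosen by name as a pathway, and a peak was assigned to a gene when it overlapped the gene's record with 5 kb on either side (GRCh38). They are 9 of 20037 protein-coding genes placed on the genome. The data come from CUT&RUN, in which an antibody directs a nuclease to chromatin and the released fragments are sequenced. All 24 libraries were made from expansion cultures of HUDEP-2, an immortalized human erythroid progenitor line, given no treatment beyond their growth medium with SCF, EPO, dexamethasone and doxycycline. Clone T carries TR4 (NR2C2, a nuclear receptor) with C-terminal 3FLAG and 3MYC epitopes, clone B has BCL11A (a zinc-finger repressor) fused to 3HA and 3MYC, and in clone TB both genes are edited. Each kind of edit is thus represented by a single clone, and an unedited line is not analysed here. MYC and TR4 antibodies in clone T and TR4 antibody in clone TB gave the 9 TR4-directed libraries. The 9 BCL11A-directed libraries used MYC or HA antibody in clone B and HA antibody in clone TB. MYC antibody in clone TB gave 3 further libraries in which both proteins carry the epitope, and IgG gave 1 library per clone. Whether the 3 replicates of an antibody and clone stem from independent cultures is not stated, so every p below reflects library-to-library spread that may be technical. RNA was not analysed here, so the erythroid identity of the line could not be checked against expressed markers.

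Erythroid precursors import iron in amounts few other cells need, because each makes large quantities of heme for hemoglobin. Iron bound to transferrin enters through the transferrin receptor TFRC, passes to the mitochondrion through mitoferrin (SLC25A37), and is inserted there into heme or built into iron-sulfur clusters, while iron not in use is caged in ferritin (FTH1 and FTL). The iron-regulatory proteins ACO1 and IREB2 sense cellular iron and bind RNA hairpins in transcripts such as those of ferritin and TFRC.

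The stretches just upstream of 4 of these genes are shown. Those of GLRX5, FTL and ABCB10 are given because the summits described below lay on or beside them, and that of SLC25A38 because its start region had a peak in more TR4-directed than BCL11A-directed libraries. The sequences are from RefSeq (GRCh38.p14), 5′ to 3′ along the gene's strand, and each ends at the base before the first base of the gene. Capitals mark matches, on either strand, to CCAAT in GLRX5 and FTL, to TGACCA (the BCL11A motif) where it overlaps CCAAT in FTL, to GATAA (the GATA motif) in ABCB10 and to CACGTG (the E-box) in SLC25A38. GLRX5 lies at chr14:95534800-95535049 (+), FTL at chr19:48965059-48965308 (+), ABCB10 at chr1:229558708-229558957 (−) and SLC25A38 at chr3:39383120-39383369 (+).
GLRX5: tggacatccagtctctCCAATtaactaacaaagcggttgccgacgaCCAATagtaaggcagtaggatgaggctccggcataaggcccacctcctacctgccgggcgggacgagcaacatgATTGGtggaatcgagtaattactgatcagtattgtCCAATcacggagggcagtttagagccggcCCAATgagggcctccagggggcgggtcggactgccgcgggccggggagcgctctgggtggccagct
FTL: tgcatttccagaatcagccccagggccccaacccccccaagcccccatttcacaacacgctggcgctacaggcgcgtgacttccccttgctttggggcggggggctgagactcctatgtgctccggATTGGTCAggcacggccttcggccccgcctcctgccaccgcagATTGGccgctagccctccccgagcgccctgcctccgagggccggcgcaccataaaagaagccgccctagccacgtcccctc
ABCB10: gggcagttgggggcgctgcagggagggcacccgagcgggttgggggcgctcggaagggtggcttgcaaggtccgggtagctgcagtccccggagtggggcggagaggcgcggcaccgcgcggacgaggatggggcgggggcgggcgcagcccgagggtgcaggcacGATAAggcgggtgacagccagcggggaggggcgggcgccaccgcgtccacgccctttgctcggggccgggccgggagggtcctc
SLC25A38: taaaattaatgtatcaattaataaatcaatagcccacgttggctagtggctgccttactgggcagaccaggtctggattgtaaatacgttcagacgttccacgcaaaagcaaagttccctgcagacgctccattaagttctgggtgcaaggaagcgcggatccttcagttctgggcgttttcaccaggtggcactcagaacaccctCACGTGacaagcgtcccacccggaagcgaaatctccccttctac

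Positions below count the first base of the gene as 0 and the base before it as −1. The FTL sequence holds TGACCAAT on its lower strand, written ATTGGTCA in the upper strand with its first base at −124, which joins a BCL11A motif to a CCAAT box. A second CCAAT match starts at −81. Among 35097 RefSeq upstream windows of 250 bases, 386 (1.1%) held TGACCAAT, 9.19% held TGACCA and 32% held CCAAT, on either strand. The GLRX5 sequence held 5 CCAAT matches, starting at −234, −204, −130, −95 and −66. ABCB10 held GATAA at −84, a match found in 20.5% of windows, and SLC25A38 held CACGTG at −44, found in 6.34%. AGGTCA, the half-site that nuclear receptors such as TR4 recognize, was present in 12.1% of windows. Among the member windows it was found at IREB2, at −66 of the second of its starts with an upstream entry. The direct repeat of AGGTCA with a spacing of 1 base (DR1) occurred in 6 windows (0.0171%) and in no member window. The GLRX5 window did not reach the TR4-directed summits there, at −378 to −327, so the sequence under them was not searched. The motifs CCAAT and TGACCAAT were added after the sequences had been read. Of the 9 members, 7 had an upstream entry, and FTH1 and SLC25A37 had none.

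The libraries differed in how much was called. The 21 libraries with a specific antibody held 4621 to 31432 peaks and the 3 IgG libraries 2036 to 4828, and replicate 3 was the shortest list in each of the 7 antibody and clone groups. BCL11A-directed lists were longer (12284 to 31432 peaks) than TR4-directed lists (4621 to 14924). Read totals are not analysed here, so depth is unknown. Fold enrichment and −log10 q are the authors' values for each peak and were used to rank peaks within a list. The percentile given below is the percent of a list's peaks with a fold at or below that of the peak in question.

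Each of the 9 iron genes had a peak in libraries of both targets, and none had more TR4-directed than BCL11A-directed libraries. A peak in 9 of 9 BCL11A-directed libraries was present at 7 members, against 28.3% of all protein-coding genes. GLRX5 alone among them had a peak in 9 of 9 TR4-directed libraries, against 14.5% of all genes. TFRC and FTH1 each had 5 TR4-directed and 9 BCL11A-directed libraries with a peak, ABCB10 had 6 and 9, and SLC25A37, SLC25A38 and FTL had 8 and 9. The counts were 4 and 7 at ACO1 and 2 and 7 at IREB2. By Fisher's exact test (two-sided, Benjamini-Hochberg over 12517 genes, threshold 0.05), none of the 9 members was called in either direction. Over all genes tested, 0.519% were called for more TR4-directed libraries and 9.95% for more BCL11A-directed libraries. The unadjusted p was under 0.05 at 0 members, and the lowest was 0.0567 at IREB2 (adjusted p = 0.209, Fisher's exact test). Member genes without a TR4-directed peak numbered 6 in the first replicates, 4 in the second and 16 in the third replicates, summed over genes and groups. The same sums over BCL11A-directed libraries were 0, 0 and 4, so missing peaks went with the shortest lists, and the part of list length in them was not tested. The gene test depended on the window: with the gene record alone it called TFRC, SLC25A37, FTH1 and ABCB10 for BCL11A (adjusted p = 0.00571, 0.00171, 0.00571 and 0.0433, Fisher's exact test). Over all genes, 1995 were then called for BCL11A, against 1246 with 5 kb either side. The number of genes tested with the record alone is not given here. These member calls are therefore not shown to be particular to iron genes.

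The strongest peak of a member ranked higher in BCL11A-directed than in TR4-directed lists at 7 of the genes, and the reverse was seen at GLRX5. FTL had median percentiles of 98.9 in BCL11A-directed and 59.7 in TR4-directed lists. SLC25A37 had 97.2 and 36.6, ABCB10 95.6 and 38.3, FTH1 92.5 and 35.4, and SLC25A38 91.7 and 57.9. TFRC had 88.0 and 41.7, and ACO1 85.0 and 36.9. At GLRX5 the medians were 87.0 in BCL11A-directed and 98.3 in TR4-directed lists, and at IREB2 36.3 and 40.4. Ranked by −log10 q the IREB2 medians were 38.1 and 35.2, so its order changed with the ranking. These medians cover only lists that hold a peak at the gene, and because the lists differ in length they describe order within lists and were not tested. The share of all protein-coding genes with the same order is not given here, so the count of 7 is not shown to be particular to iron genes.

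Within the 9 windows, peaks of all libraries merged into 56 regions, numbered for each gene from low to high coordinate. A single region had an IgG peak, inside SLC25A37 (chr8:23547993-23548084, 1 IgG library of clone B), and no specific antibody gave a peak there. Of the 55 other regions, 17 had a peak in a single library with a specific antibody, and 29 reached the minimum of 4 of the 18 TR4-directed and BCL11A-directed libraries and were tested. Of the 29, 7 were called by Fisher's exact test, each with more BCL11A-directed libraries, and 0 were called for TR4. Over all 24485 regions tested, 25.6% were called for BCL11A and 2.00% for TR4. Of the 7, 2 were among the 18 tested regions within 1 kb of a gene end and 5 among the 11 elsewhere. The shares over all regions called for BCL11A were 17.3% at gene ends and 32.0% elsewhere, and for TR4 1.94% and 2.04%. More BCL11A-directed libraries had a peak at 25 of the 29, more TR4-directed libraries at 2, and the numbers were equal at 2. The share of all tested regions with the same direction is not given here, and the BCL11A-directed lists were longer. The count of 25 is therefore not shown to be particular to iron genes. When lists were shortened to their 4621 strongest peaks, 7766 regions over the genome could still be tested. Of these, 19.8% were called for TR4 and 18.4% for BCL11A. Of the 7 calls, 6 were then lost. Among these, SLC25A38 region 5 was tested and missed the threshold (adjusted p = 0.0624, Fisher's exact test), and the others had a peak in too few libraries to test. The call at FTH1 region 5 held. The regions at the starts of TFRC, FTL and ABCB10 and 2 at the lower end of SLC25A37 were called for BCL11A instead.

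**Figure D1:**
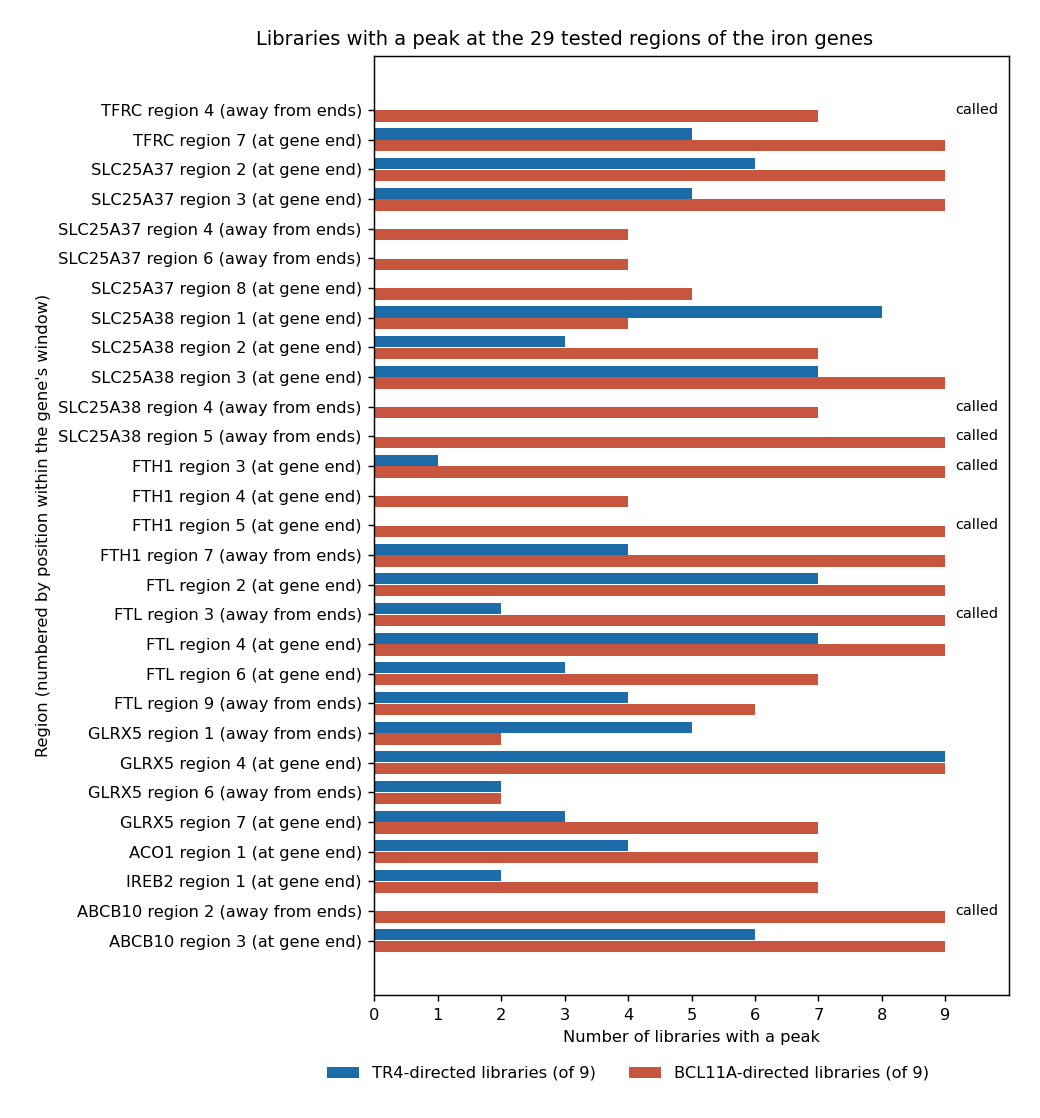
Bars give the number of TR4-directed (blue, of 9) and BCL11A-directed (red, of 9) libraries with a peak at each of the 29 tested regions, and "called" marks the 7 that passed Fisher's exact test after adjustment over 24485 regions. Of the 7, 5 have no blue bar, and SLC25A38 region 1 and GLRX5 region 1 have the longer blue bars.

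TFRC (chr3:196049284-196082090), the receptor that takes up transferrin-bound iron, had its main region across its start. Region 7 (chr3:196081892-196082390) had a peak in 5 of the 9 TR4-directed libraries and 9 of the 9 BCL11A-directed ones (adjusted p = 0.146, Fisher's exact test). Fold enrichment there was 7.48 and 8.63 with MYC in clone T (replicates 1 and 2), 7.01 and 12.9 with TR4 in clone T (replicates 1 and 2) and 7.66 with TR4 in clone TB (replicate 1). It was 19.3, 16.3 and 13.6 with MYC in clone B, 18.2, 27.1 and 15.8 with HA in clone B and 23.2, 14.7 and 17.2 with HA in clone TB. The 5 TR4-directed lists with the peak placed it at percentiles 23 to 69.8 and the BCL11A-directed lists at 80.4 to 94.7. MYC in clone TB, where both proteins are tagged, gave 87.4, 74.3 and 69.5. With lists of equal length the region had 1 TR4-directed and 8 BCL11A-directed libraries (adjusted p = 0.0124, Fisher's exact test). A second region lay inside the gene, 2979 bases from the start (region 4, chr3:196078987-196079234). It had a peak in 0 of the 9 TR4-directed libraries and 7 of the 9 BCL11A-directed ones (adjusted p = 0.013, Fisher's exact test), missing from replicate 3 of both HA groups. Its folds were modest, 6.51 to 14.9, and the call was lost without the MYC libraries of the single-edit clones T and B (adjusted p = 0.148, Fisher's exact test) and with lists of equal length, where no peak was left there.

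SLC25A37 (chr8:23528956-23575463), the mitoferrin that carries iron into mitochondria of erythroid cells, had a pair of strong BCL11A regions side by side at its lower-coordinate end. Region 2 (chr8:23527672-23528333) had a peak in 6 of the 9 TR4-directed libraries and 9 of the 9 BCL11A-directed ones (adjusted p = 0.322, Fisher's exact test). The TR4-directed peaks were in 3 of 3 MYC libraries of clone T, 0 of 3 TR4 libraries of clone T and 3 of 3 TR4 libraries of clone TB. Region 3 (chr8:23528566-23529040), which covers that end of the gene record, had 5 and 9 (adjusted p = 0.146, Fisher's exact test). Folds in region 3 were 41.8, 34.7 and 16.2 with MYC in clone B, 39.5, 30.5 and 15.9 with HA in clone B and 24.9, 23 and 16.6 with HA in clone TB. In the 5 TR4-directed libraries they were 4.60 to 8.54. The percentiles were 92.4 to 98.8 in the BCL11A-directed lists and 8.5 to 47.1 in the 5 TR4-directed lists with the peak. With lists of equal length region 3 had 0 and 9 libraries (adjusted p = 0.000387, Fisher's exact test) and region 2 had 2 and 8 (adjusted p = 0.0399, Fisher's exact test). Weaker regions followed within the gene. Regions 4 and 6, 12090 and 12958 bases from the nearer end of the record, each had 4 BCL11A-directed and no TR4-directed libraries (adjusted p = 0.146, Fisher's exact test). Region 8 near the upper end of the record had 5 and 0 (adjusted p = 0.0731, Fisher's exact test). The BCL11A-directed libraries without its peak were replicates 2 and 3 of MYC and of HA in clone B. It was called when any 1 of those was left out (adjusted p = 0.0253 to 0.0286, Fisher's exact test), so the gain came from removing a library that lacked the peak.

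ABCB10 (chr1:229516582-229558707), a mitochondrial inner-membrane transporter that binds and stabilizes mitoferrin in erythroid cells, had its strongest region across the start. Region 3 (chr1:229558464-229559238) had a peak in 6 of the 9 TR4-directed libraries and 9 of the 9 BCL11A-directed ones (adjusted p = 0.322, Fisher's exact test). Folds were 33.6, 54.4 and 18.3 with MYC in clone B, 24.1, 33.7 and 19.6 with HA in clone B and 24.8, 12.8 and 11 with HA in clone TB. The 6 TR4-directed peaks had folds of 6.12 to 10.2. The percentiles were 77.4 to 99.3 in the BCL11A-directed lists and 25.3 to 58.7 in the 6 TR4-directed lists with a peak. Taking the strongest peak of each library, the BCL11A-directed summits (the points of highest signal) stood within a narrow stretch from −69 to −37, just downstream of the GATAA match at −84. The corresponding TR4-directed summits were spread out, at −254 and −384 with MYC in clone T, −65 with TR4 in clone T and −302, −362 and −43 with TR4 in clone TB. MYC in clone TB placed them at −36, −58 and −58, inside or next to the BCL11A-directed stretch. In 6 libraries the region held a second, weaker peak. Its summit was at −50 and −13 in replicates 1 and 2 of MYC in clone T and at −259 in replicate 2 of TR4 in clone T. It was at −302 in replicate 3 of HA in clone TB (percentile 72.8) and at 232 in replicates 1 and 2 of HA in clone B. The narrower placement of BCL11A-directed summits thus holds for the strongest peaks. Among them, the TR4-directed summits at −65 and −43 already lay within the BCL11A-directed stretch, as did the second peak at −50. The difference in mean summit of the strongest peaks, 178 bases, did not pass adjustment (exact permutation test, two-sided, p = 0.00639, adjusted p = 0.057 over 7833 regions, of which 10.4% were called). A region 3483 bases into the gene (region 2, chr1:229554884-229555504) had a peak in 0 of the 9 TR4-directed libraries and 9 of the 9 BCL11A-directed ones (adjusted p = 0.000938, Fisher's exact test). Its folds were 6.75 to 15.4 and its percentiles 46.7 to 78.2. No peak of that region was left with lists of equal length, whereas region 3 was then called with 1 and 8 libraries (adjusted p = 0.0124, Fisher's exact test).

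SLC25A38 (chr3:39383370-39397351), a mitochondrial carrier that imports glycine for the first step of heme synthesis, carried regions of differing makeup along its first 6 kb. Region 1 (chr3:39383221-39383403), across the start, was 1 of the 2 tested member regions with more TR4-directed than BCL11A-directed libraries, 8 against 4 (adjusted p = 0.221, Fisher's exact test). TR4-directed folds in it were 8.10, 11 and 8.55 with MYC in clone T, 6.33, 15.3 and 7.28 with TR4 in clone T, and 7.88 and 8.97 with TR4 in clone TB. BCL11A-directed folds were 4.95 to 10.2, so the 2 ranges overlapped. TR4-directed summits fell between −91 and 4, around the CACGTG match at −44 in the printed sequence. BCL11A-directed summits lay around it as well, at −31 with MYC in clone B and at −91 and −62 with HA in clone B. In replicate 2 of HA in clone TB the summit was at −78. The mean difference of 28.4 bases did not pass adjustment (exact permutation test, p = 0.113, adjusted p = 0.334 over 7833 regions). Region 2 (chr3:39383542-39383707), inside the gene, had 3 and 7 libraries (adjusted p = 0.249, Fisher's exact test), with TR4-directed folds of 9, 17.4 and 15.6 and BCL11A-directed folds of 10 to 24.3. Region 3 (chr3:39384164-39384571, mean summit at 1026) had 7 TR4-directed and 9 BCL11A-directed libraries (adjusted p = 0.646, Fisher's exact test). Further into the gene the TR4-directed lists had no peak. Region 4 (chr3:39387610-39387915, mean summit at 4321) had 0 and 7 libraries (adjusted p = 0.013, Fisher's exact test), and region 5 (chr3:39388729-39389022, mean summit at 5518) had 0 and 9 (adjusted p = 0.000938, Fisher's exact test). The BCL11A-directed summits of region 4 had an SD of 8.2 bases over 7 libraries. Folds in region 5 were 9.62, 8.92 and 9.76 with MYC in clone B, 20.4, 23.3 and 5 with HA in clone B and 14.6, 11.5 and 15.1 with HA in clone TB. With lists of equal length region 5 had 0 and 5 libraries and missed the threshold (adjusted p = 0.0624, Fisher's exact test), and region 4 had 0 and 2. The call at region 4 was also lost without the MYC libraries of the single-edit clones T and B (adjusted p = 0.148, Fisher's exact test). All 3 regions nearest the start also overlap the lncRNA record LOC105377644.

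**Figure D2:**
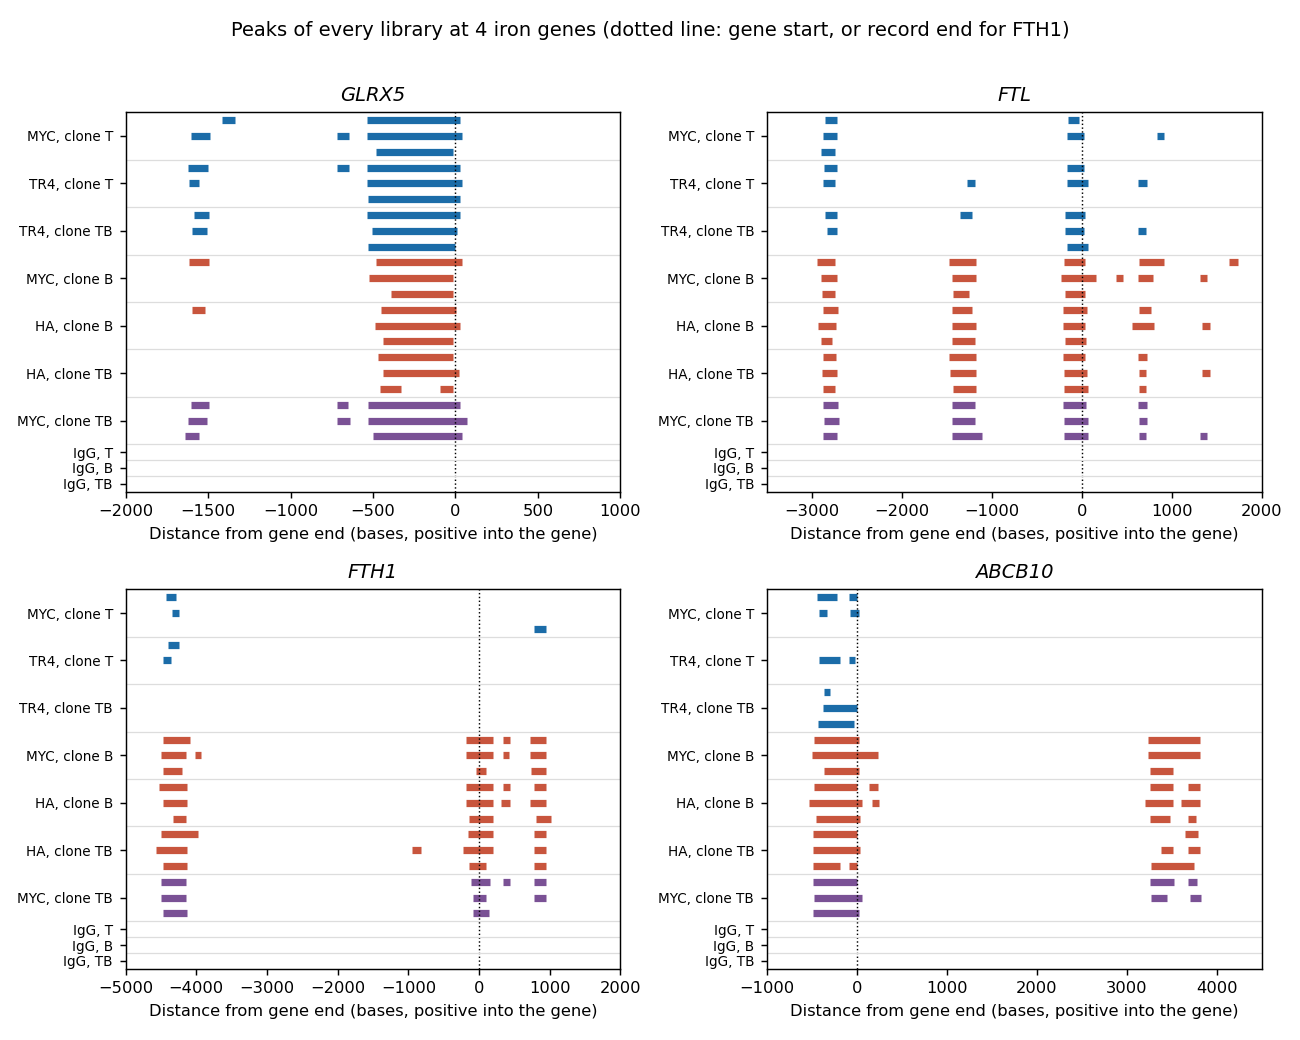
Each row is a library (blue TR4-directed, red BCL11A-directed, purple MYC in clone TB, then IgG) and each bar a deposited peak, placed by distance in bases from the gene start (GLRX5, FTL, ABCB10) or the upper record end (FTH1), positive into the gene. BCL11A-directed bars at 0 on FTH1 and around 3483 on ABCB10 have no blue counterpart, and at the starts of GLRX5 and FTL both colours are present.

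Ferritin is built of heavy chains (FTH1), which oxidize iron for storage, and light chains (FTL), which help the core form. Both have many pseudogene copies, so reads may have been shared or dropped among copies, and the sources used here do not say how the alignment treated them. FTL (chr19:48965309-48966879) had the highest-ranked BCL11A peak of all members. Region 4 (chr19:48965080-48965472) covers most of the printed sequence and the gene start. Folds there were 40.8, 48.9 and 17.2 with MYC in clone B, 44.3, 53.6 and 16.9 with HA in clone B and 48.3, 69 and 28.8 with HA in clone TB. In the second HA library of clone TB it ranked 35 of 27021 peaks. TR4-directed folds were 5.31 and 7.47 with MYC in clone T, 4.09 and 7.21 with TR4 in clone T, and 13.5, 14.6 and 13.3 with TR4 in clone TB. The TR4 antibody thus ranked the peak at percentiles of 70.0 to 72.4 in clone TB, which carries tagged BCL11A, and at 1.85 and 37.8 in replicates 1 and 2 of clone T, whose BCL11A is untagged. This split by clone was seen after the values were known and cannot be called with 3 libraries against 3, where the smallest p is 0.1. MYC in clone TB gave folds of 44.3, 33.8 and 28.2.

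The FTL region had a peak in 7 of the 9 TR4-directed libraries and 9 of the 9 BCL11A-directed ones (adjusted p = 0.646, Fisher's exact test), and in 3 and 9 with lists of equal length (adjusted p = 0.0252). The BCL11A-directed summits lay between −117 and −106, at or a few bases after the joined TGACCAAT match that starts at −124, and 6 of the 9 were at −117. The 7 TR4-directed summits lay at −102 and −117 with MYC in clone T and −109 and −108 with TR4 in clone T. With TR4 in clone TB they lay at −109, −62 and −40, so placement beside the match was shared by libraries of both targets. The mean difference of 21.5 bases did not pass adjustment (exact permutation test, p = 0.0123, adjusted p = 0.0865 over 7833 regions). Upstream, between BAX and FTL, region 3 (chr19:48963838-48964196) had a peak in 2 of the 9 TR4-directed libraries and 9 of the 9 BCL11A-directed ones (adjusted p = 0.013, Fisher's exact test). It was weak in both, with folds of 3.77 and 8.68 against 4.66 to 8.17. The call was lost without the MYC libraries of the single-edit clones T and B (adjusted p = 0.148), without all libraries numbered 3 (adjusted p = 0.125) and with lists of equal length, where no peak was left (Fisher's exact test). Region 2 (chr19:48962368-48962610), 2796 bases upstream of FTL, had 7 and 9 libraries (adjusted p = 0.646, Fisher's exact test). Region 6 (chr19:48965873-48966222), inside FTL, had 3 and 7 (adjusted p = 0.249, Fisher's exact test), with folds of 3.8 to 8.15 and 4.74 to 13. Region 9 (chr19:48969861-48970152), inside the neighbouring gene GYS1, had 4 and 6 (adjusted p = 0.796, Fisher's exact test).

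FTH1 (chr11:61964285-61967634) had no TR4-directed peak at the end of its record where BCL11A-directed peaks were strong. Region 5 (chr11:61967437-61967859), across the upper end of its record, had a peak in 0 of the 9 TR4-directed libraries and 9 of the 9 BCL11A-directed ones (adjusted p = 0.000938, Fisher's exact test). Folds were 18.7, 18.7 and 14.3 with MYC in clone B, 23, 25.2 and 7.04 with HA in clone B and 21.4, 21.1 and 16.4 with HA in clone TB. MYC in clone TB gave lower folds of 6.90, 8.41 and 8.31. The region held its call with lists of equal length, with 0 and 7 libraries (adjusted p = 0.00874, Fisher's exact test). It also overlaps the lncRNA record LOC399900. Region 3 (chr11:61966615-61966918), 898 bases inside that end, had 1 and 9 libraries (adjusted p = 0.00394, Fisher's exact test), with BCL11A-directed folds of 7.67 to 13.9, and 1 and 1 with lists of equal length, too few to test. Region 4 (chr11:61967199-61967319), between them, had 0 and 4 (adjusted p = 0.146, Fisher's exact test). The TR4-directed peaks of FTH1 came mainly from region 7 (chr11:61971570-61972197), 4293 bases beyond the record. It had peaks in replicates 1 and 2 of MYC and of TR4 in clone T, with folds of 6.48, 12, 10.1 and 7.13, and in 0 of 3 TR4 libraries of clone TB. All 9 BCL11A-directed libraries had it, with folds of 7.25 to 25.8 (adjusted p = 0.0731, Fisher's exact test). Leaving out any 1 of the 4 TR4-directed libraries with the peak brought the adjusted p to 0.0292 to 0.0315 (Fisher's exact test).

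GLRX5 (chr14:95535050-95544714), a mitochondrial glutaredoxin that hands newly made iron-sulfur clusters to their targets and whose loss causes sideroblastic anemia, stood apart from the other members. Its region 4 (chr14:95534516-95535122) covers the gene start and overlaps the lncRNA record SNHG10. A peak was present in 9 of 9 TR4-directed libraries, 9 of 9 BCL11A-directed and 3 of 3 MYC libraries of clone TB, and in none of the IgG libraries. A peak in 18 of 18 libraries was found at 10.5% of all protein-coding genes. TR4-directed folds were 129, 146 and 43 with MYC in clone T, 112, 152 and 50.8 with TR4 in clone T and 106, 107 and 50.5 with TR4 in clone TB, lowest in replicate 3 of each group. Their percentiles were 95.2 to 99.0. BCL11A-directed folds were 29.9, 27.1 and 13 with MYC in clone B, 20, 29.7 and 9.88 with HA in clone B and 5.70, 16.6 and 7.74 with HA in clone TB. Their percentiles within region 4 ran from 20.9 to 95.8, wider than for TR4 and overlapping it. MYC in clone TB gave 90.3, 106 and 91.2, within the range of the TR4-directed folds. Fisher's exact test of presence gave an adjusted p of 1, and 9 and 7 libraries remained with lists of equal length (adjusted p = 0.615).

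Both targets peaked at different points of the GLRX5 region. Summits lay at −327, −335 and −366 with MYC in clone T, −349, −349 and −378 with TR4 in clone T and −349, −349 and −377 with TR4 in clone TB. They lay at −245, −51 and −261 with MYC in clone B, −157, −157 and −322 with HA in clone B and −190, −51 and −51 with HA in clone TB. These are the summits of the strongest peak of each library. The 2 sets did not overlap, and the BCL11A-directed summits, 7 of them within the printed sequence, were more scattered. Replicate 3 of HA in clone TB had a second, weaker peak in the region (percentile 35) with its summit at −349, among the TR4-directed positions. The mean summit was at 95534697 ± 17.4 (SD, n = 9 TR4-directed libraries) and 95534885 ± 100 (SD, n = 9 BCL11A-directed libraries), a difference of −188 bases (exact permutation test, two-sided, p = 4.11e-05, the smallest it can give, adjusted p = 0.000842 over 1453 regions). In this comparison 24.5% of the regions with a peak in all 18 libraries were called. MYC in clone TB placed the summit at −335, −335 and −349, beside the TR4-directed ones. With median in place of mean summits the difference was −192 bases with an adjusted p of 0.116, and 0 of the 1453 regions were called by that exact permutation test, whose smallest adjusted p was 0.0598 (409 regions had an unadjusted p under 0.05). Upstream, region 1 (chr14:95533408-95533560), which overlaps SNHG10 and SCARNA13, was the other tested region with more TR4-directed libraries, 5 against 2 (adjusted p = 0.487, Fisher's exact test). Region 6 (chr14:95542318-95542457), within the gene, had 2 libraries of each target, with folds of 4.32 to 5.39. Region 7 (chr14:95544695-95544918), at the far end of the gene, had 3 and 7 (adjusted p = 0.249, Fisher's exact test).

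**Figure D3:**
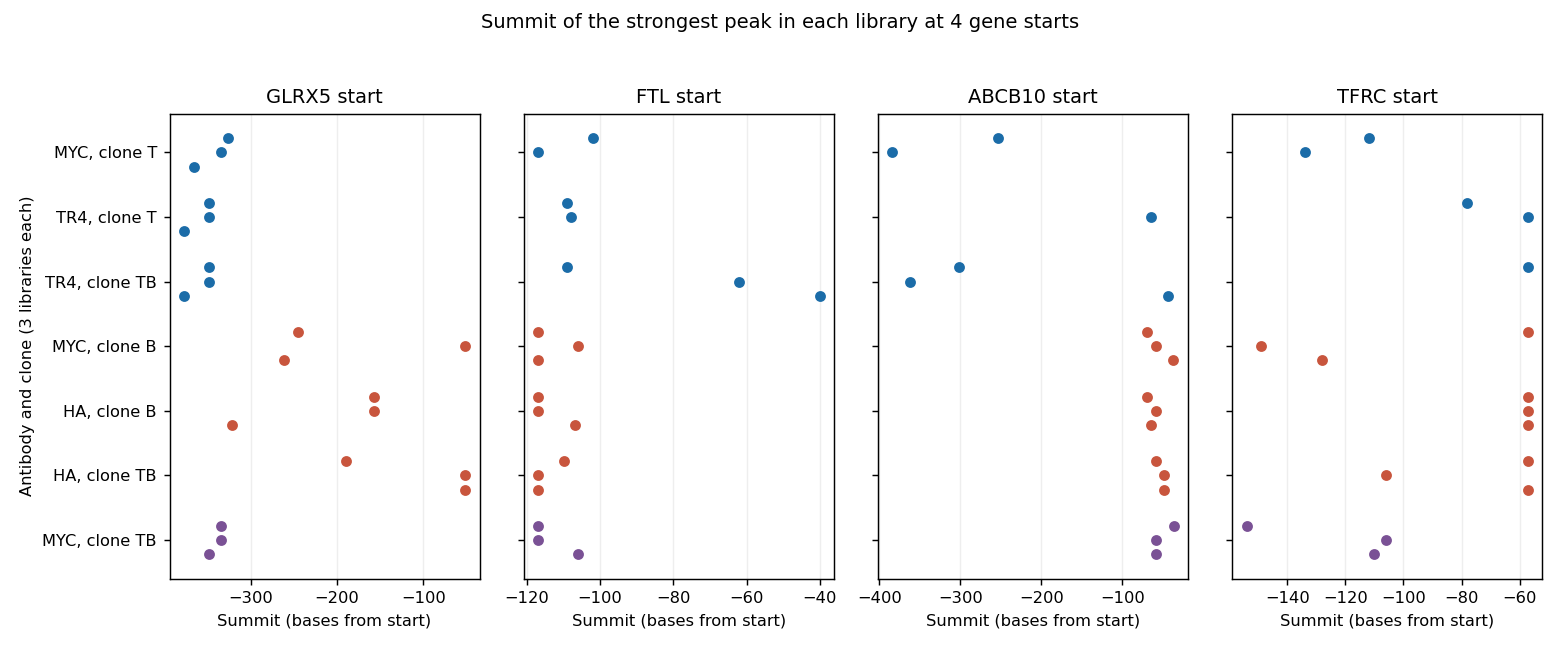
Points give the summit of the strongest peak in each library, in bases from the gene start (negative is upstream), in the regions at the starts of GLRX5, FTL, ABCB10 and TFRC, with 1 row per antibody and clone and up to 3 points per row. At GLRX5 the blue points (−378 to −327) lie left of all red points (−322 to −51), with the purple points of MYC in clone TB beside the blue ones, while at ABCB10 the purple points lie beside the red ones.

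The iron sensors had the fewest libraries. ACO1 (chr9:32384643-32454769), the cytosolic aconitase that becomes an RNA-binding iron-regulatory protein when its iron-sulfur cluster is lost, had a single tested region at its start (region 1, chr9:32384443-32384690). It had a peak in 0 of 3 MYC libraries of clone T, 2 of 3 TR4 libraries of clone T and 2 of 3 TR4 libraries of clone TB. BCL11A-directed peaks were in 2 of 3 MYC and 3 of 3 HA libraries of clone B and 2 of 3 HA libraries of clone TB (adjusted p = 0.487, Fisher's exact test). Folds were 6.11 to 10.5 in the TR4-directed and 13.3 to 25.6 in the BCL11A-directed libraries with a peak. The BCL11A-directed summits stood at −134 in 6 of the 7 libraries. TR4-directed summits stood at −121 and −134 with TR4 in clone T and at −70 and −134 with TR4 in clone TB. IREB2 (chr15:78437431-78501453), the iron-regulatory protein that is degraded when iron is plentiful, had 1 tested region (region 1, chr15:78437969-78438269). Its mean summit lay 177 bases upstream of the first IREB2 start with an upstream entry. That position is inside the gene record, 608 bases from its lower end. The region had a peak in 2 of the 9 TR4-directed libraries and 7 of the 9 BCL11A-directed ones (adjusted p = 0.127, Fisher's exact test), with overlapping folds of 7.16 and 7.78 against 5.07 to 17.1. No peak of it was among the 4621 strongest of any of these 18 lists. Leaving out 1 library, replicate 2 of MYC or of TR4 in clone T or replicate 3 of HA in clone B or clone TB, gave adjusted p-values of 0.0384 to 0.0453 (Fisher's exact test). Those of clone T were the TR4-directed libraries with the peak, and those with HA were the BCL11A-directed libraries without it. Each removal thus took away a library that ran against the difference.

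The members' upstream sequences ran from 49.6% G and C at SLC25A38 to 77.2% at ABCB10, against a median of 58% over all windows. GLRX5 had 59.2%, FTL 67.6%, TFRC 74.4% and ACO1 76.8%, and the 2 windows of IREB2 had 63.2% and 65.6%.

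Other iron genes, in 5 lists taken from textbook knowledge, held 56 genes, of which 51 were tested. None was called for TR4 and 5 were called for BCL11A by Fisher's exact test, beside 0.519% and 9.95% of all genes tested. With equal list lengths 6 were called for TR4 and 2 for BCL11A. Over all genes the calls then numbered 1231 and 959, against 65 and 1246 with full lists. BCL11A calls numbered 0 without the MYC libraries of the single-edit clones T and B, where no gene at all was called. That 0 therefore says nothing particular about iron genes. Pathway calls for BCL11A numbered 3 without all libraries numbered 3 or with 10 kb windows. They numbered 8 with a −log10 q of at least 5 or with the gene record alone, 11 without replicate 2 of TR4 in clone T, 8 without replicate 3 of MYC in clone B and 9 without replicate 3 of HA in clone B or in clone TB. Shares of all genes tested under these settings are not given here, so these counts are not shown to be particular to iron genes. The median difference in libraries (TR4-directed minus BCL11A-directed) was −2 over the lists, −3 over the 9 members and −2 over all genes tested. Of the 5, 4 were among the 10 tested genes of import and endosomal release. STEAP3, the endosomal ferrireductase, had 1 TR4-directed and 9 BCL11A-directed libraries (adjusted p = 0.00779, Fisher's exact test), as did SLC39A14, an importer of iron not bound to transferrin. CYBRD1, a membrane ferric reductase, had 2 and 9 (adjusted p = 0.0249, Fisher's exact test), and EXOC6, an exocyst subunit needed for transferrin cycling, had 0 and 7 (adjusted p = 0.0249, Fisher's exact test). The iron transporter SLC11A2 and the endolysosomal channel MCOLN1 had peaks in 18 of 18 libraries, and SLC11A2 and EXOC6 also had a peak in 1 and 2 IgG libraries. Among 6 tested genes of storage and sensing 0 were called. The iron chaperone PCBP2 and the ferritin-degradation receptor NCOA4 had peaks in 18 of 18. Among 10 tested genes of export and systemic control 0 were called and none had peaks in 18 of 18. The median difference there was −5 libraries, and ERFE, the erythroid hormone that lowers hepcidin, had 0 and 6 (adjusted p = 0.0605, Fisher's exact test). Mitochondrial iron-sulfur assembly had 15 tested genes, 0 called, 5 with peaks in 18 of 18 (IBA57 and SLC25A28 ranked highest) and a median difference of 0. NFS1, the cysteine desulfurase that supplies the sulfur, had 9 and 6 (adjusted p = 0.474, Fisher's exact test). Cytosolic iron-sulfur assembly had 10 tested genes and 1 called, CIAO2B, a targeting subunit of the assembly machinery, with 0 and 9 libraries (adjusted p = 0.00252, Fisher's exact test). NDOR1 and CIAO2A had peaks in 18 of 18.

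Across the 21 libraries with a specific antibody, the gene whose strongest-peak percentile (0 with no peak) followed a member most closely was found by Pearson's r over all protein-coding genes. HSDL2 was nearest to ABCB10 (r = 0.976), STARD3 to SLC25A37 (r = 0.968), CCDC6 to TFRC (r = 0.966) and USE1 to FTL (r = 0.966). TFCP2 was nearest to FTH1 (r = 0.959), TRAPPC10 to GLRX5 (r = 0.956), DHRS4L2 to ACO1 (r = 0.955), PSMC1 to IREB2 (r = 0.937) and ZNF565 to SLC25A38 (r = 0.908). STARD3 was also second for ABCB10 (r = 0.975). These points share their libraries and the division by target, so the values describe likeness and carry no test. Genes with exactly the same pair of counts as TFRC and FTH1 (5 and 9 libraries) numbered 383, and those with the pair of SLC25A37, SLC25A38 and FTL (8 and 9) numbered 791.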

How the data were processed

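CUT&RUN peak lists of 24 libraries of HUDEP-2 clones were used, 3 for each of 7 antibody and clone groups and 1 IgG list per clone. The submitters' processing notes name MACS2 2.1.4, Bowtie2, SAMtools, Picard and Trimmomatic and the build GRCh38, without settings or the treatment of multiply mapping reads. The authors deposited a separate list for each library and no pooled one. From each deposited list the fold enrichment (a linear ratio), the −log10 q-value and the summit offset were taken as the authors' caller gave them. The lowest −log10 q of a list was 2.00 to 2.05. Read depth is unknown, so no interval that needs it is given.

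Peaks sharing at least 1 base were merged over all lists into 79570 regions, of which 7349 held an IgG peak and were not tested. The number of TR4-directed against BCL11A-directed libraries with a peak (9 against 9) was tested by Fisher's exact test, two-sided, for each region and each protein-coding gene present in 4 or more of the 18. Mean summits were compared by an exact permutation test, two-sided, where all 18 libraries had a peak, and, as an alternative added after seeing the data, where at least 4 libraries of each target did. P-values were adjusted by Benjamini-Hochberg over the whole table at 0.05. MYC libraries of clone TB entered no test, and folds and percentiles were not tested between lists. Gene records came from a RefSeq GRCh38.p14 table without strand or exons, so exon, intron and UTR positions are not given, and starts came from a RefSeq promoter table. Motifs were counted in the 250 bases upstream of each start on both strands.

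The members and lists were chosen with earlier results of these data known. Named are all 9 members and their regions present in 4 or more of 18 libraries or in 3 of 3 of a group, IgG regions, up to 3 called and 2 ever-present genes of each pathway list, and the genes most like each member. EXOC6, ERFE and NFS1 were named after their values were seen. The alternatives were equal list lengths, a −log10 q of at least 5, no MYC libraries, IgG regions kept, no minimum of libraries, a replicate block, leaving out single libraries or all those numbered 3, gene windows of 0, 1 and 10 kb, summit-based windows and other summit choices. The test of presence was checked on simulated lists that kept each library's list length and had no effect of target apart from 200 planted changes. It recovered 89.0% of these. Of 25049 regions tested there, 106 unchanged ones were also called, all 106 for BCL11A, the target with the longer lists. Peaks were drawn independently for each simulated library, without likeness among libraries of an antibody or clone. The 106 calls thus give no false-call rate for the real lists. The summit test was not checked in this way. Python 3.11.15, numpy 2.4.6, pandas 2.3.3, scipy 1.17.1 and matplotlib 3.10.9 were used.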

Additional observations from a re-analysis of the deposited data

How the results depend on the processing

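The 9 members gave 0 calls for TR4 by the gene test under each alternative run. The count of members called for BCL11A was 0 except with equal list lengths (3: TFRC, SLC25A37 and ABCB10), with the gene record alone (0 kb, 4) and with 1 kb either side (1, FTH1). Over all genes, the counts called for TR4 and BCL11A were 65 and 1246. They were 177 and 1989 with a −log10 q of at least 5, 178 and 1995 at 0 kb, 40 and 705 without the libraries numbered 3, and 0 and 0 without the MYC libraries. With equal list lengths the counts were 1231 and 959, and with 1 kb either side 65 and 1289. The numbers of genes tested under these alternatives are not given here, so the member counts have no share of all genes beside them. Over all regions, 489 and 6258 were called. The counts were 1538 and 1426 with equal list lengths, 112 and 1545 without the MYC libraries, and 316 for TR4 with no minimum of libraries. Leaving out 1 library at a time gave 65 to 106 genes for TR4, 1256 to 2240 for BCL11A, 559 to 795 regions for TR4 and 6908 to 9052 for BCL11A, and 0 members. Calls of a summit shift numbered 356. They were 323 to 389 when 1 library was left out, 185 without the MYC libraries, 0 with median summits and 812 of 7833 with at least 4 libraries of each target (chosen after seeing the data). The cause of these changes was not tested, apart from the smaller number of libraries or peaks that some settings leave. Of the other values of members, their regions and pathway genes, 1037 kept their side of the threshold or moved little, 25 gained and 11 lost a call, 12 others moved (11 of them counts of pathway genes, given above), and no tested value reversed. The order of the 2 targets' untested median percentiles at IREB2 changed when peaks were ranked by −log10 q.

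With a replicate block the calls were 507 and 6402 regions, 75 and 1375 genes, 0 members and 335 summit shifts. The replicate numbers were not treated as pairs, since not every same-numbered pair correlated over 0.1: deviations of same-numbered libraries had correlations of −0.0844 to 0.455 over 63 pairs, 15 of them over 0.1, against 2 of 126 pairs with other numbers. Of the 21 libraries, 18 correlated best with their own number, a hint from the data and not from the design. List length limits what a missing peak shows: at this depth a peak that was not called was not detectable, which does not show an absence of binding.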
